A study of Mus musculus with 44 samples.

Results

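Follistatin, the activins and the bone morphogenetic proteins (BMPs) were followed as 10 genes, Fst, Fstl1, Fstl3, Inhba, Inhbb, Bmp4, Bmp2, Grem1, Nog and Acvr2a, of 31484 gene names in the deposited count table. Fst was picked for its fall under netazepide (NTZ), an antagonist of the gastrin/CCK2 receptor, in knockout (KO) mice. The other 9 genes were chosen by their known roles in the same pathway. They and the gene lists used below were chosen with earlier results of these data known. Messenger RNA from a piece of gastric corpus was sequenced in 44 libraries of BalbC mice aged 13 months. The mice were wild type (WT) or lacked the beta subunit of the H+/K+ATPase, the acid pump of parietal cells, and both genotypes received NTZ or only its vehicle polyethylene glycol (PEG). With vehicle there were 11 WT/PEG and 13 KO/PEG libraries, and with the drug 9 WT/NTZ and 11 KO/NTZ libraries. The labels write NTZ as YF. The KO allele is constitutive, with a neomycin cassette in place of the first exon of Atp4b, so every tissue carried it from conception, in a line known for its loss of acid secretion and for high gastrin. All mice were female. A corpus piece holds mucosa with its glands, stroma, vessels and nerves, and values are those of the whole piece.

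The libraries held between 6065084 and 21945124 estimated counts. Atp4b was between 2139 and 5737 CPM (counts relative to the effective library size) in the WT libraries and between 2.28 and 40.6 CPM in the KO libraries, so no library went against its genotype label. The markers of corpus cells summed to at least 1955 CPM (parietal cells) and 2442 CPM (chief cells) in every library, while the antral list, Gast and Pdx1, reached at most 45.9 CPM and Gast had a median of 0 CPM in WT/PEG. Keratins and Trp63 of the squamous forestomach epithelium summed to more than 100 CPM in 6 of 9 WT/NTZ and 5 of 11 KO/NTZ libraries, and in 3 WT/PEG and 2 KO/PEG libraries, with up to 2965 CPM in WT/NTZ. A pair of WT/PEG libraries carried one animal number, and the number 110 stood in both KO groups. No pair of libraries of one group agreed within sampling noise. The labels do not say that each library is a separate animal, and the study's methods describe fewer KO/PEG mice than the 13 KO/PEG libraries. Thus n counts libraries throughout, and the p-values measure the spread between them, which in KO/PEG may be too small if mice were sampled more than once.

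Activins are dimers of inhibin beta subunits (Inhba and Inhbb), and a beta subunit paired with the alpha subunit Inha gives an inhibin, which opposes activin. Activins bind the type II receptors Acvr2a and Acvr2b, which then activate type I receptors and the transducers Smad2 and Smad3. BMPs share Acvr2a, but act through Smad1, Smad5 and Smad9 and induce the Id genes. Secreted antagonists hold the ligands away from their receptors. Follistatin wraps activin almost irreversibly and binds some BMPs more weakly, whereas noggin and Grem1 mainly take up BMPs. In the stomach, BMP signals from the stroma promote the maturation of parietal cells and restrain gland proliferation.

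The Fst count came from a single transcript, Fst-201, of the 6 that GENCODE vM21 lists for the gene (ENSMUSG00000021765, GRCm38 chr13:114452290-114458951, minus strand). Fst-201 has 344 codons and encodes the long form of follistatin, which circulates. Fst-202 has 317 codons and encodes the short form, which lacks the acidic tail and stays bound to heparan sulfates at the cell surface. The 2 transcripts share their first 5 exons apart from 2 bases at the start and part at the end of exon 5, as the coding ends below show. Each line opens with the last 30 bases of exon 5, the sequence is the GENCODE vM21 transcript on GRCm38, minus strand, and the capitals mark the stop codon. The first lies within chr13:114453423-114454309 and the second within chr13:114453804-114454309, and both spans hold an intron.
Fst-201: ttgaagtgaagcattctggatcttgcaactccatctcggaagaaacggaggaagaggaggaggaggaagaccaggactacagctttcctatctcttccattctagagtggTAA
Fst-202: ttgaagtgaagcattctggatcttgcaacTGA
The last exon of Fst-202 (GRCm38 positions 114452290 to 114453805) covers the whole last exon of Fst-201. Reads from either form could therefore be counted on Fst-201, and the values below do not separate the long form from the short one. Of the other members, Inhbb, Bmp2, Grem1 and Nog also rested on 1 transcript each. Bmp4 counts were shared by Bmp4-202 (58.7%) and Bmp4-201 (40.6%), and 41.3% of the Fstl3 counts lay on Fstl3-202, which is annotated as a processed transcript without a coding sequence.

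The members differed widely in level. In TPM, transcript abundance scaled for length, the highest levels in WT/PEG were those of Fstl1, a secreted follistatin-like glycoprotein of stromal cells, at 16.7 ± 4.13 (SD, n = 11), and of the ligand Bmp2 at 12.6 ± 2.87 (SD, n = 11). Acvr2a at 8.80 ± 1.59 and Bmp4 at 8.19 ± 1.73 TPM came next and lay within one another's spread. Grem1 at 5.56 ± 2.41 and Fstl3 at 3.51 ± 0.633 TPM followed, also within the spread of Grem1. The lowest were Inhbb at 1.45 ± 0.610, Nog at 1.01 ± 0.350, Fst at 0.876 ± 0.424 and Inhba at 0.382 ± 0.283 TPM. Inhbb, Nog and Fst were each within an SD of the next, whereas Inhba was more than an SD below Fst. In KO/PEG the order had changed, with Fst at 3.48 ± 1.69 TPM (SD, n = 13) beside Acvr2a at 3.50 ± 1.95, Grem1 at 3.42 ± 3.78, Fstl3 at 3.33 ± 0.835 and Inhbb at 3.26 ± 1.69 TPM, levels that their spreads do not separate. Bmp2 at 17.1 ± 5.25 and Fstl1 at 15.7 ± 5.90 TPM stayed at the top. In KO/NTZ Fst was again near the bottom, at 0.517 ± 0.285 TPM (SD, n = 11), with only Inhba lower, at 0.0425 ± 0.0700 TPM.

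Fst, the activin antagonist, was high in KO/PEG and low elsewhere. Its lowest, median and highest values in KO/PEG were 1.35, 5.30 and 8.71 CPM, against 0.533, 1.27 and 3.10 CPM in WT/PEG. In KO/NTZ they were 0.156, 0.690 and 1.41 CPM, and in WT/NTZ 0.492, 1.14 and 1.88 CPM. Thus 11 of 13 KO/PEG libraries lay above every WT/PEG library, and 10 of 11 KO/NTZ libraries lay below every KO/PEG library. The single overlap between the KO groups was KO/PEG animal 53, at 1.35 CPM, below KO/NTZ animal 25, at 1.41 CPM.

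On the log2 scale Fst was 1.71 (SE 0.28) higher in KO/PEG than in WT/PEG and 2.59 (SE 0.30) lower in KO/NTZ than in KO/PEG, the latter a 6.01-fold lower level. It was 0.55 (SE 0.32) lower in KO/NTZ than in WT/NTZ. As Fst was picked on the KO libraries, these are descriptions with no test, and the 2 KO comparisons share the KO/PEG libraries. The WT mice were not used for the choice. There Fst had a log2 difference of -0.33 (SE 0.32) between WT/NTZ and WT/PEG, which did not pass the test (edgeR quasi-likelihood, Benjamini-Hochberg adjusted p = 0.933), with a 95% interval from -0.97 to 0.31. The NTZ effect on Fst in KO minus that in WT was -2.26 (SE 0.43) on the log2 scale, again as a description. The estimated counts behind these values were small, from 21 to 136 per library in KO/PEG and from 2 to 23 in KO/NTZ. One KO/NTZ library, of animal 23, had 2 counts, under the 3 counts that an observed 0 would allow.

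**Figure D1:**
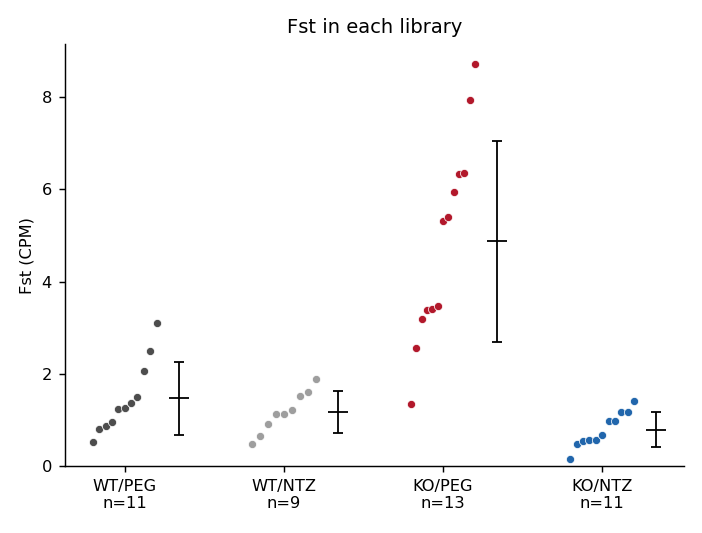
Fst in CPM (vertical axis) in each library of the 4 groups, with the group mean and SD as a black bar beside the points. The 13 KO/PEG points reach from 1.35 to 8.71 CPM, while no other group exceeds 3.10 CPM.

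The animal numbers were unevenly spread over the KO groups, and the labels do not say what they stand for. In KO/PEG 6 libraries had animal numbers below 100 and 7 had higher ones, whereas 10 of 11 KO/NTZ libraries had numbers below 100. Among the numbers below 100, the mean of Fst was 4.11 CPM (SD 2.41) for the 6 KO/PEG libraries. For the 10 KO/NTZ libraries it was 0.823 CPM (SD 0.388). The KO/PEG libraries numbered 100 or above had 5.53 ± 1.90 CPM (SD, n = 7), within the spread of the others. With only the KO animals numbered below 100, the log2 difference between KO/NTZ and KO/PEG was -2.31.

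Other cell types moved with Fst between the groups, and in bulk samples fewer cells of a type and less RNA per cell cannot be told apart. The markers of enterochromaffin-like (ECL) cells, the histamine-releasing endocrine cells that carry the gastrin receptor, are Hdc, Chga, Slc18a2 and Cckbr. Summed, they had a median of 1790 CPM in KO/PEG (range 749 to 2446), 714 CPM in KO/NTZ (555 to 870), 501 CPM in WT/PEG (420 to 868) and 444 CPM in WT/NTZ (307 to 604). All 4 ECL genes fell in KO/NTZ against KO/PEG, Hdc by 1.97 on the log2 scale (adjusted p = 1.03e-07), and 3 of 4 rose in KO/PEG against WT/PEG. KO/PEG animal 53, the library with the lowest Fst of its group, had an ECL sum of 1807 CPM, so the order within that group was not the same for both.

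The 7 fibroblast markers had a median sum of 549 CPM in KO/PEG (range 287 to 891) and 406 CPM in KO/NTZ (199 to 648), and 2 of them, Col1a1 and Col1a2, fell in KO/NTZ. The 6 smooth muscle markers moved the other way, from 1802 CPM (1093 to 3513) in KO/PEG to 3637 CPM (2155 to 4775) in KO/NTZ, and 3 of them rose. The mesothelial list, at a median of 8.40 CPM (3.55 to 18.8) in KO/PEG and 4.31 CPM (0.932 to 9.0) in KO/NTZ, also had 1 gene that fell. The 4 parietal cell markers had a median sum of 3699 CPM (1955 to 7164) in KO/PEG and 3065 CPM (1961 to 4761) in KO/NTZ, and 1 of them, the water channel gene Aqp4, fell by 2.26 on the log2 scale (adjusted p = 0.00638). The endothelial sum had a median of 217 CPM (153 to 363.5) in KO/PEG and 206 CPM (78.8 to 674) in KO/NTZ. Pecam1 made up most of it, with a median of 168 CPM in both groups. Of its 6 genes 3 fell, Cdh5, Kdr and Tek. The part of these cell types in the Fst values was not tested.

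**Figure D2:**
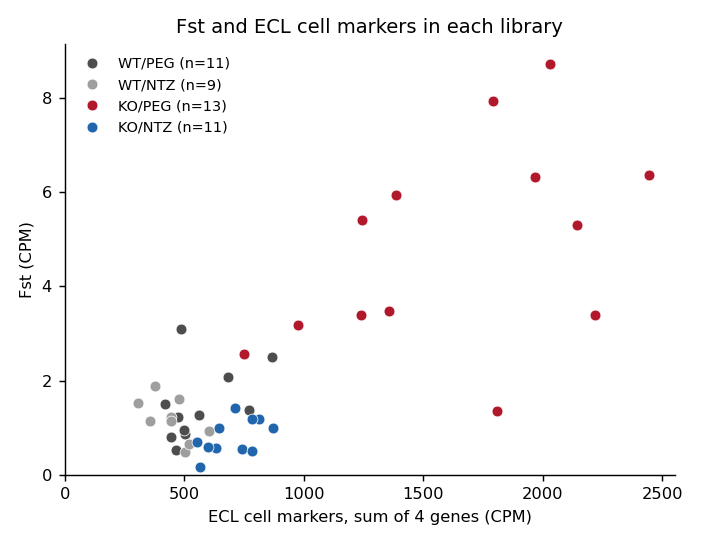
Fst (vertical axis, CPM) against the summed CPM of the 4 ECL cell markers (horizontal axis), 1 point per library, coloured by group. Most KO/PEG points stand apart at the upper right, but 1 of them lies at 1807 CPM of ECL markers and 1.35 CPM of Fst.

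Within the groups the relation of Fst to 13 marker lists is given as a description. It has no test, because the KO libraries on which Fst was picked enter here. Deviations from the group mean of log2 CPM were correlated over the 44 libraries, 2 of which share an animal number, with the deviations of each list's sum. Fibroblasts had the highest Pearson r of the 13 lists, 0.41, with a Spearman rho of 0.33. Parietal cells had the highest Spearman rho, 0.37, with a Pearson r of 0.33. For ECL cells Pearson r was 0.30 and Spearman rho 0.31. Without the 2 libraries whose log2 marker sum deviated most from the group mean, r was 0.31 for fibroblasts, 0.33 for parietal cells and 0.22 for ECL cells. Within KO/PEG r was 0.41, 0.43 and 0.40 for these 3 lists, and within KO/NTZ 0.31, 0.78 and 0.55, also without tests.

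The genes whose log2 CPM deviated from their group means most like Fst were, of 13940 genes compared, Pid1 (Pearson r = 0.62), Tmem204 (0.61), Pmp22 (0.61), Fstl1 (0.61), D6Wsu163e (0.58), Galnt16 (0.58), Tpbg (0.58) and Cd302 (0.58). These are descriptions over the same 44 libraries, which share depth and composition. Without the 2 libraries that deviated most in Fst, r ranged from 0.46 for Galnt16 to 0.62 for Pmp22. The follistatin relative Fstl1 was thus the member most like Fst within groups, followed by Bmp4 (r = 0.43) and Grem1 (r = 0.36). Inhbb, the activin subunit, had r = -0.19. None of the 8 passed the test between KO/NTZ and KO/PEG, where the nearest was Tmem204 at -0.41 on the log2 scale (adjusted p = 0.0588).

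The comparison of KO/PEG with WT/PEG shows how the rest of the pathway stood in KO mice given vehicle. Apart from Fst, 6 of the 8 members that passed the filter on low counts changed, 1 upwards and 5 downwards, with edgeR's quasi-likelihood test at an adjusted p under 0.05. Of all 14901 genes tested, 74.7% were called in this comparison, 37.5% higher and 37.2% lower, so the share among the members is near the background. The median log2 difference of the 8 members was -0.36, against -0.00282 over all genes tested.

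Acvr2a, a type II receptor for activins, had the largest change among the members tested. Its lowest, median and highest values were 34.9, 40.4 and 52.8 CPM in WT/PEG and 3.85, 10.6 and 21.9 CPM in KO/PEG. No KO library reached the lowest WT library of either treatment. It fell by 1.91 (SE 0.23) on the log2 scale, or 3.76-fold (adjusted p = 1.67e-09). Grem1, a BMP antagonist of the stroma, fell by 1.09 (SE 0.34) on the log2 scale (adjusted p = 0.00405). Its values were 12.5, 17.8 and 38.3 CPM in WT/PEG and 2.38, 8.36 and 33.8 CPM in KO/PEG, and 10 of 13 KO/PEG libraries lay below every WT/PEG library. The other 3 lay within the WT/PEG range, and the highest of them was KO/PEG animal 46, at 33.8 CPM, in the library with the highest mitochondrial share of its group, 14.4%.

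Inhbb, the subunit of activin B, was the one member tested that rose. Its values were 3.16, 5.04 and 9.42 CPM in WT/PEG and 5.18, 9.46 and 21.4 CPM in KO/PEG, so the ranges overlapped but 7 of 13 KO/PEG libraries lay above all WT/PEG libraries. The log2 difference was 0.96 (SE 0.22, adjusted p = 0.00019). Bmp4, a stromal BMP ligand, fell from 12.8 ± 2.13 CPM (SD, n = 11) to 9.64 ± 2.86 CPM (SD, n = 13), by 0.41 (SE 0.14) on the log2 scale (adjusted p = 0.00878). Fstl1 fell by 0.31 (SE 0.12) and Fstl3, a follistatin-like activin antagonist, by 0.29 (SE 0.13) on the log2 scale, with adjusted p of 0.0176 and 0.0403, and their ranges overlapped widely with those of WT/PEG. Bmp2, the other BMP ligand, at 40.0 ± 7.33 and 46.1 ± 8.96 CPM, did not pass (log2 difference 0.21, SE 0.11, adjusted p = 0.0993), nor did the antagonist Nog, at 1.55 ± 0.600 and 1.02 ± 0.561 CPM (log2 difference -0.59, SE 0.29, adjusted p = 0.063). With only the KO animals numbered below 100 (6 KO/PEG), 3 members passed, Acvr2a, Inhbb and Bmp2, and Bmp4, Grem1, Fstl1 and Fstl3 did not. The call of Fstl3 also ended with RLE size factors, another scaling of the libraries (adjusted p = 0.0572), without the filter (0.0781) and in a fit of the KO/PEG and WT/PEG libraries alone (0.0732). Without the squamous-rich libraries, those above 100 CPM of squamous markers, Fstl3 (adjusted p = 0.0551) and Fstl1 (0.0609) did not pass, while Inhba and Nog did.

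Inhba, the subunit of activin A, was near the limit of detection and did not pass the filter on low counts. Its lowest, median and highest estimated counts were 1, 5 and 21 in WT/PEG, 1, 5 and 12 in WT/NTZ, 0, 3 and 13 in KO/PEG and 0, 0 and 2 in KO/NTZ. No KO/NTZ library exceeded 3 counts, and 7 of 11 had none. On library totals before TMM scaling, 3 counts correspond to 0.137 to 0.501 CPM over all libraries. A difference from KO/PEG, where 4 of 13 libraries exceeded 3 counts, was not read at this depth. Without the filter, Inhba passed the test in both comparisons of KO with WT.

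**Figure D3:**
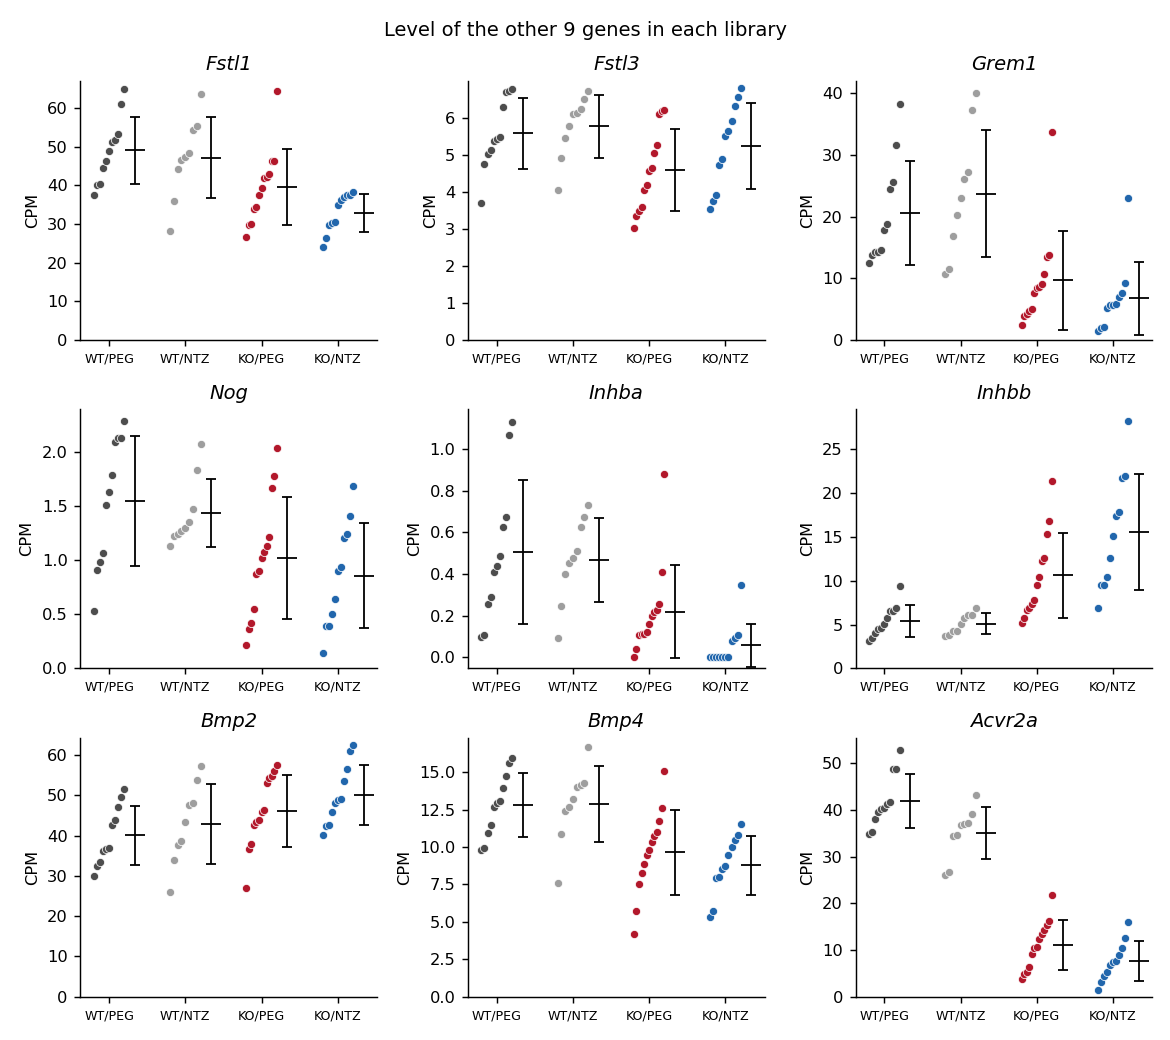
Level in CPM (vertical axes, different in each panel) of the other 9 genes in each library of the 4 groups, with the group mean and SD as a black bar beside the points. The KO and WT points of Acvr2a do not overlap, and those of Inhbb are shifted up in both KO groups.

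The promoters of Grem1, Acvr2a and Inhbb are shown because these 3 members had the largest fold changes of those tested, 2 downwards and 1 upwards. RefSeq windows of 250 bases before to 50 after the start, on GRCm38.p6, were at hand for 7 of the 10 members, Fstl1, Fstl3, Inhba, Inhbb, Bmp4, Grem1 and Acvr2a. They were searched for GGCGCC, a GC-rich element that the SMADs of the BMP branch can bind, and for CAGAC, a core to which Smad3 and Smad4 bind, both strands in each case. The motifs do not overlap one another, and capitals mark every match. Among all promoters of that length GGCGCC was found in 11.9% and CAGAC in 49.6%.
Grem1, chr2:113758599-113758898, minus strand: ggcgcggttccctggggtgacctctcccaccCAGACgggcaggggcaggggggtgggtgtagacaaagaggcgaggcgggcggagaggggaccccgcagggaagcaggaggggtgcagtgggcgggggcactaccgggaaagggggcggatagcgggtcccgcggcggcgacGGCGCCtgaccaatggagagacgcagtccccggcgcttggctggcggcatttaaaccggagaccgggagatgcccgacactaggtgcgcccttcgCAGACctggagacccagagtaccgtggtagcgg
Acvr2a, chr2:48813859-48814158, plus strand: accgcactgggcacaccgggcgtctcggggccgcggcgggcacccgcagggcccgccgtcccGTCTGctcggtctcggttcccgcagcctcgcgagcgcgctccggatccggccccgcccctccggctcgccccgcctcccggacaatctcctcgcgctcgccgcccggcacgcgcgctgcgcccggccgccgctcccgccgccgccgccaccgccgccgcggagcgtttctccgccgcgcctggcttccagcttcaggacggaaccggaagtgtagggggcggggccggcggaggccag
Inhbb, chr1:119422199-119422498, minus strand: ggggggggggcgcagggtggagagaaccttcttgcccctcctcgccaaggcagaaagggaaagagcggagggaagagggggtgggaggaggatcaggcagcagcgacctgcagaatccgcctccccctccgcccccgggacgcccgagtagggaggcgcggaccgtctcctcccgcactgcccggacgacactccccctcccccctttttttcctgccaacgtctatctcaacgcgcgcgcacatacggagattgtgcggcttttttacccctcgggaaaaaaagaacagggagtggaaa
Of the 7 windows, GGCGCC was in Grem1 alone, once. CAGAC was in Grem1 and Fstl3, with 2 matches each, and in Acvr2a, with 1. Inhbb, Inhba, Bmp4 and Fstl1 had neither. All 3 windows shown are rich in G and C, at 70.7%, 80.3% and 64.3%, against a median of 52.7% over all promoters. These are matches of letters and show no binding.

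Acvr2a and Grem1 were not alone in their direction. The chief cell markers summed to 88876 to 208481 CPM in WT/PEG and to 2442 to 36553 CPM in KO/PEG, with no overlap. That sum was mostly Pgc (median 153912 CPM in WT/PEG). Of the 4 chief cell genes 3 fell, but Pga5 rose by 2.46 on the log2 scale (edgeR adjusted p = 1.68e-06). The parietal cell markers summed to 6440 to 9632 CPM in WT/PEG and 1955 to 7164 CPM in KO/PEG, and the fibroblast markers to medians of 771 and 549 CPM. The mucous neck and SPEM markers moved the other way, from 1813 to 2710 CPM in WT/PEG to 6998 to 63289 CPM in KO/PEG. SPEM is the spasmolytic polypeptide-expressing metaplasia of a corpus that has lost its mature cells. The part of these cell types in the members' changes was not tested.

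Blocking the gastrin receptor in KO mice moved none of the other members past the threshold. Of 8 members tested, 0 were called between KO/NTZ and KO/PEG by edgeR's quasi-likelihood test, 3 had an unadjusted p under 0.05, and DESeq2 and limma also called 0. Of all 14901 genes tested, 5.56% were called and 3713 had an unadjusted p under 0.05. The members' median log2 difference was -0.20, with -0.01 over all genes.

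Inhbb came closest, with lowest, median and highest values of 5.18, 9.46 and 21.4 CPM in KO/PEG and 6.92, 15.1 and 28.3 CPM in KO/NTZ, a log2 difference of 0.55 (SE 0.21, adjusted p = 0.11). The ranges overlapped, and 10 of 11 KO/NTZ libraries lay above the KO/PEG median. Leaving out KO/PEG animal 32, which had the highest Inhbb of its group, gave 0.68 and an adjusted p of 0.0425. Fstl1 averaged 39.6 CPM with vehicle (SD 9.80) and 32.9 CPM with NTZ (SD 4.92), with a log2 difference of -0.27 (95% interval -0.51 to -0.03, adjusted p = 0.159). Acvr2a stood at 11.1 ± 5.26 and 7.67 ± 4.24 CPM, with a log2 difference of -0.50 (95% interval -0.97 to -0.03, adjusted p = 0.176). For the BMP ligands the intervals were narrow, from -0.11 to 0.35 for Bmp2 and from -0.41 to 0.16 for Bmp4. Those of the BMP antagonists were wider, from -1.16 to 0.24 for Grem1 and from -0.87 to 0.33 for Nog, and that of Fstl3 ran from -0.07 to 0.45. Each of these intervals lies nearer 0 than the log2 value of -2.59 (SE 0.30) of Fst. As Fst was picked for its fall in this comparison, nothing is read from that distance.

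**Figure D4:**
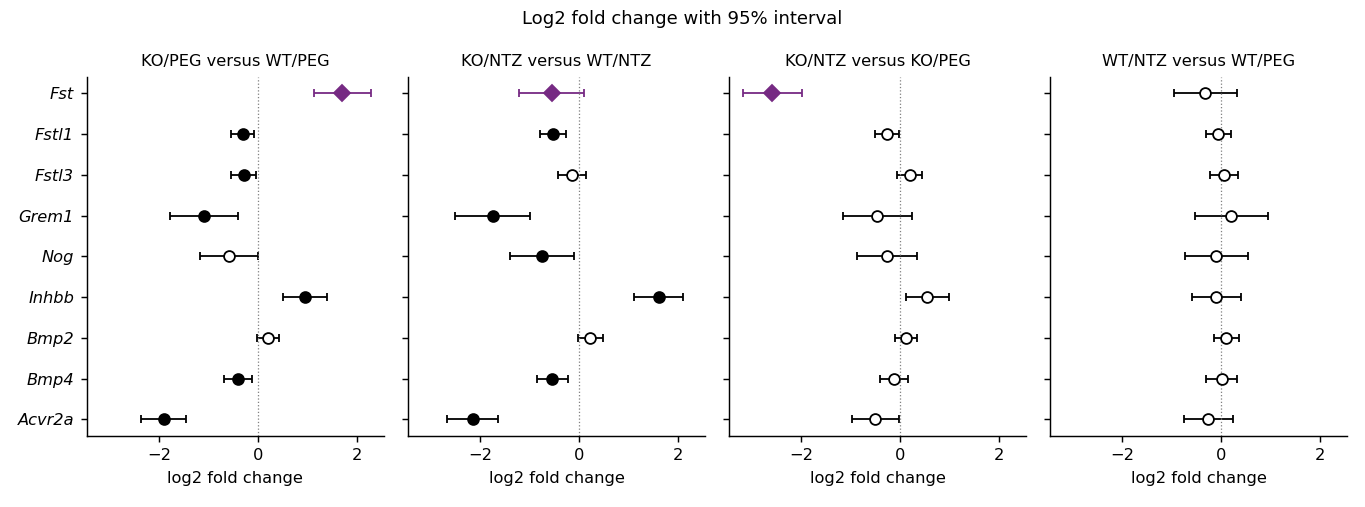
Log2 fold change (horizontal axis) with its 95% interval for 9 members in 4 comparisons. Filled circles passed the test, open circles did not, and purple diamonds are Fst where it was not tested. The filled circles stand in both comparisons of KO with WT and in neither of the NTZ comparisons.

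In WT mice NTZ left every member short of the threshold. By edgeR 0 of 9 members were called, and 0 had an unadjusted p under 0.05, and DESeq2 and limma called 0 too. Of all 14901 genes, 1.03% were called and 1166 had an unadjusted p under 0.05. The log2 differences ranged from -0.33 for Fst to 0.20 for Grem1, with adjusted p between 0.933 and 0.998. For Acvr2a the values were 34.9, 40.4 and 52.8 CPM in WT/PEG and 26.1, 36.7 and 43.3 CPM in WT/NTZ, and the log2 difference was -0.26 (SE 0.25). The direction of Fstl3, Bmp4, Bmp2 and Grem1 in WT mice changed when the libraries with over 100 CPM of squamous markers were left out, which kept 3 of the 9 WT/NTZ libraries.

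Under NTZ in both genotypes, KO differed from WT again, with 6 of 8 members called in KO/NTZ against WT/NTZ, 1 higher and 5 lower. In all, 72.4% of genes were called, 35.6% higher and 36.8% lower. Inhbb was higher by 1.61 (SE 0.25) on the log2 scale (adjusted p = 4.39e-07), at 15.6 ± 6.58 CPM (SD, n = 11) against 5.11 ± 1.17 CPM (SD, n = 9), and 10 of 11 KO/NTZ libraries lay above every WT/NTZ library. Acvr2a fell by 2.15 (SE 0.25) on the log2 scale (adjusted p = 2.18e-09), with no overlap. Grem1 fell by 1.75 (SE 0.38, adjusted p = 7.85e-05) on that scale, with KO/NTZ animal 51 high at 23.1 CPM. Bmp4 fell by 0.54 (SE 0.15, adjusted p = 0.00194), Fstl1 by 0.52 (SE 0.13, adjusted p = 0.000524) and Nog by 0.75 (SE 0.32, adjusted p = 0.0362) on the log2 scale. Fstl3 (-0.14, adjusted p = 0.361) and Bmp2 (0.22, adjusted p = 0.107) did not pass. Without the squamous-rich libraries 3 members passed, Acvr2a, Inhbb and Inhba, while Bmp4, Fstl1, Grem1 and Nog did not, and Fst was 0.21 higher on the log2 scale in place of lower.

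The test of whether NTZ acted differently in KO and WT mice called 0 of 8 members by edgeR, with 0 at an unadjusted p under 0.05 and 0 by DESeq2 or limma, and 0.96% of all genes. Of all 14901 genes, 1733 had an unadjusted p under 0.05. Inhbb was nearest, at a log2 difference of 0.65 (95% interval -0.01 to 1.31, adjusted p = 0.439).

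The wider pathway was read from 9 lists of ligands, antagonists, receptors, transducers and targets, 91 genes of which 71 other than Fst were tested. In KO/PEG against WT/PEG 16 rose and 39 fell (77.5%, beside 74.7% of all genes, 37.5% higher and 37.2% lower). Their median log2 difference was -0.40, against -0.00282 for all genes. Of the 16, 4 (Inha, Gdf15, Chrdl2 and Msx1) passed the filter on low counts, 0.819 CPM in at least 9 libraries, only through KO libraries, so they could hardly have been called lower and their calls add nothing to the count. Among the ligands, the activin subunit Inhbb rose. Inha, among those 4, had a mean of 0.576 CPM (SD 0.249) in WT/PEG against 1.23 CPM (SD 0.706) in KO/PEG. Its log2 difference of 1.06 is given as a description, and its call ended with only KO animals numbered below 100. Of 10 BMP and GDF ligands 4 fell and 1 was called higher. The latter was Gdf15, a stress-induced member of the family, with medians of 0.503 CPM in KO/PEG (range 0.135 to 2.26) and 0.0892 CPM in WT/PEG (0 to 0.269). As the WT/PEG median is below the lowest floor, 0.137 CPM on totals before TMM scaling, no fold is given. Gdf9, best known from oocytes, fell by 2.74 and Bmp5 by 1.06 on the log2 scale. Of 4 TGF-beta and Nodal ligands 2 rose and 2 fell. Tgfb1 rose by 1.36, from 5.37 ± 0.924 to 13.9 ± 3.74 CPM, and the Nodal antagonist Lefty1 by 1.19, while Tgfb2 fell by 1.07 on the log2 scale.

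The antagonists and receptors went mostly down, where 37.2% of all genes were lower and 37.5% higher. Of 14 secreted antagonists besides Fst, 9 fell and 1 was called higher. The latter was Chrdl2, which passed the filter on low counts only through KO libraries. The BMP antagonist Sostdc1 fell by 4.16 on the log2 scale (adjusted p = 6.42e-11), from 12.1 CPM (median; 6.73 to 19.8) to 0.503 CPM (0 to 3.01). Crim1, a membrane-bound antagonist, fell by 1.22 on that scale. Of 16 receptors and co-receptors 13 fell and 2 rose. The smallest p were those of the BMP receptor Bmpr1b, which fell by 1.96 on the log2 scale from 41.2 ± 7.05 to 10.6 ± 3.79 CPM, of the co-receptor Tgfbr3, which fell by 1.04, and of Acvr2a. By size the type I receptor Acvr1c, named after its value was seen, fell the most, by 2.44 on the log2 scale. Bambi, a decoy receptor that BMPs induce, rose by 1.30 on the log2 scale. The other receptor that rose was Acvr2b, which activins bind as they do Acvr2a, also named after its value was seen. It was higher by 0.77 on the log2 scale (edgeR adjusted p = 0.00239), and by 0.72 in KO/NTZ against WT/NTZ (adjusted p = 0.0108).

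The counts of the next 4 lists stand beside 74.7% of all genes called in this comparison, 37.5% higher and 37.2% lower. Of 6 SMAD transducers 4 fell, led by Smad9 of the BMP branch, by 1.98 on the log2 scale, with the common partner Smad4 by 0.72 and Smad3 by 0.42. Of 6 inhibitory SMADs and ligases 4 fell, among them the corepressors Ski, by 0.72, and Skil, by 1.23, and the ubiquitin ligase Smurf2, by 0.86. The 10 BMP target genes tested were split, 4 higher and 3 lower. Among those higher was Msx1, which passed the filter on low counts only through KO libraries. Id1 rose by 1.57 on the log2 scale, from 80.6 ± 16.8 to 239.9 ± 86.3 CPM, and Id3 by 1.34, both inhibitors of differentiation factors. Of 8 activin and TGF-beta target genes 5 rose and 3 fell. Tgif1, a repressor of SMAD transcription, rose by 0.54 (adjusted p = 4.14e-09), while the feedback inhibitor Smad7 fell by 0.75 on the log2 scale.

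**Figure D5:**
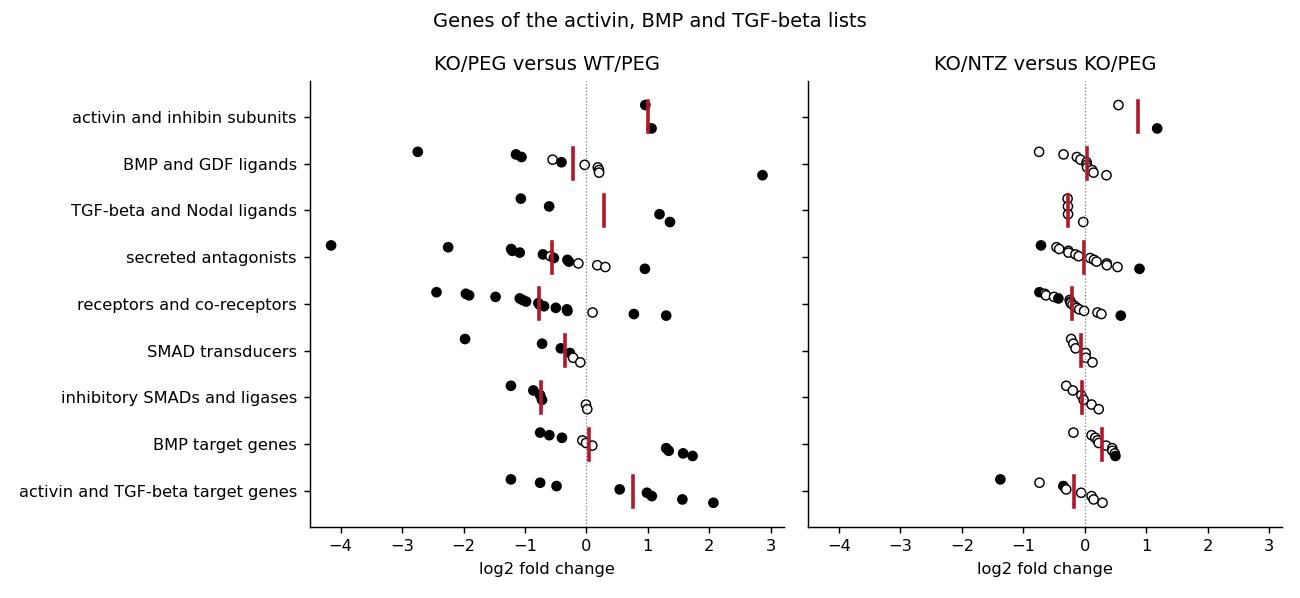
Log2 fold change (horizontal axis) of each gene of the 9 lists (vertical axis) in KO/PEG versus WT/PEG and in KO/NTZ versus KO/PEG, without Fst. Filled points passed the test, open points did not, and red bars are list medians. Most points of the left panel are filled, against 9 genes of 71 in the right panel.

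Between KO/NTZ and KO/PEG 4 of the 71 genes rose and 5 fell (12.7%, beside 5.56% of all genes), with a median log2 difference of -0.06. The inhibin subunit Inha rose by 1.18 (SE 0.34, adjusted p = 0.0297), from 1.23 ± 0.706 to 2.78 ± 1.88 CPM. The BMP antagonist Chrd rose by 0.89 (SE 0.21, adjusted p = 0.0077), from 0.986 ± 0.350 to 1.85 ± 0.635 CPM, and the BMP co-receptor Rgma by 0.59 (SE 0.13, adjusted p = 0.0038), from 7.11 ± 1.91 to 10.7 ± 2.33 CPM. Id4, a BMP target, rose by 0.50 (SE 0.16, adjusted p = 0.0474).

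Tgif1 fell by 0.35 on the log2 scale (SE 0.07, adjusted p = 0.000825), from 28.1 ± 3.12 to 22.03 ± 2.53 CPM, against 19.3 ± 1.87 CPM in WT/PEG. Crim1 fell by 0.71 (SE 0.19, adjusted p = 0.0179), the TGF-beta receptor Tgfbr2 by 0.74 (SE 0.20, adjusted p = 0.0237) and the endothelial co-receptor Eng by 0.43 (SE 0.11, adjusted p = 0.0181) on the log2 scale. In a fit of the KO groups alone, Inha, Id4, Crim1, Tgfbr2 and Eng did not pass, with adjusted p from 0.0506 to 0.152. Without the squamous-rich libraries Rgma and Tgif1 passed, and the other 7 did not. Id4 also missed the threshold in 5 other alternatives. In WT mice NTZ changed 0 of 72 genes of the lists by edgeR, DESeq2 or limma, with 0 at an unadjusted p under 0.05, beside 1166 of all 14901 genes. The NTZ effects differed between the genotypes for 0 of 71 by edgeR or limma, and for 2 by DESeq2, among them Tgif1 (adjusted p = 0.0371). By edgeR 9 of the 71 had an unadjusted p under 0.05, beside 1733 of all 14901 genes.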

How the data were processed

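Corpus RNA of 44 libraries was prepared with a stranded poly(A) kit and sequenced as single reads. The authors quantified GRCm38 transcripts with kallisto 0.42.4 and deposited 1 table of estimated counts for 94080 transcripts, not normalized. The columns name the libraries, and groups follow the labels. The members and lists were chosen with earlier results of these data known.

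Transcripts were paired with GENCODE vM21 gene names (92372 matched, and the 1708 others held 0.329 to 1.3% of a library), summed per gene to 31484 names and rounded. Summing shares reads among overlapping transcripts and near-identical copies as kallisto assigned them. CPM used TMM library sizes, and TPM used annotated transcript lengths. edgeR 4.0.16 (R 4.3.3) fitted quasi-likelihood models over all 44 libraries with 4 group means, after filterByExpr (minimum count 10), with Benjamini-Hochberg adjustment over 14901 genes and a threshold of 0.05. The study's own test needs kallisto's own error estimates, which were not used here. Fst received no test where KO libraries entered. Log2 CPM used a prior count of 2. Intervals are 95% t intervals on 40 residual degrees of freedom. Floors are 3 counts (counting error only), given as CPM of library totals before TMM scaling. Correlations of Fst with marker lists are given without a test. DESeq2 1.42.0 and limma 3.58.1 were alternatives. The fits were tested on simulated data.

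The text names the 10 members, up to 3 genes per list with the smallest p in KO/PEG versus WT/PEG and in KO/NTZ versus KO/PEG, the 8 genes most like Fst within groups (mean of at least 1 CPM), and markers that moved with a member. Ctgf was read as Ccn2, and Gdf1 did not match. Some genes that the rule names are counted in their lists but not reported here by name. Alternatives were RLE size factors, no filter, only the groups compared, DESeq2, limma-trend, the 2 libraries of one WT/PEG animal number summed, no libraries numbered 110, only KO animals numbered below 100, each library left out and, added after seeing the data, no libraries with squamous markers above 100 CPM.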

Additional observations from a re-analysis of the deposited data

How the results depend on the processing

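Depth limited Fst in KO/NTZ (2 to 23 counts), Inhba and Nog. Fst kept its direction in KO/PEG versus WT/PEG (log2 1.47 to 1.73, and 1.61 to 1.88 with each library left out) and in KO/NTZ versus KO/PEG (-2.67 to -2.31, and -2.70 to -2.47) under every alternative run. The cause of the changes below was not tested.

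With only KO animals numbered below 100, 3 members passed in KO/PEG versus WT/PEG in place of 6. Without squamous-rich libraries (3 of 9 WT/NTZ kept) 3 passed in KO/NTZ versus WT/NTZ in place of 6, and the difference between the NTZ effects on Fst was -1.44. There, log2 differences reversed for Nog in KO/NTZ versus KO/PEG (0.11), for Fstl3 (-0.19), Bmp4 (-0.31), Bmp2 (-0.0039) and Grem1 (-0.47) in WT mice, for Fst (0.21) and Fstl3 (0.0076) in KO/NTZ versus WT/NTZ, and for Fstl1 (0.10), Bmp4 (0.17), Grem1 (0.27) and Nog (0.34) in the difference between NTZ effects. Bmp4 in WT mice, near 0, also reversed with limma (-0.0047) and the libraries sharing a WT/PEG animal number summed (-0.019), and Bmp2 in the difference between NTZ effects with RLE (-0.0064), DESeq2 (-0.0079) and KO animals below 100 (-0.085).

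With each library left out, members past the threshold ranged from 0 to 1 in KO/NTZ versus KO/PEG. In WT mice Fstl1 ranged from -0.12 to 0.016, Inhbb from -0.16 to 0.014 and Bmp4 from -0.051 to 0.080, and Bmp2 in the difference between NTZ effects from -0.057 to 0.074. Fstl3 in KO/PEG versus WT/PEG lost its call (adjusted p up to 0.0911) without any 1 of 18 libraries, 10 of them of the groups compared. It also lost it under 5 other alternatives (adjusted p 0.0551 to 0.131), and Fstl1 under 2 (0.0609 and 0.349). Nog gained one there without any of 3 WT/PEG, 3 KO/PEG and 1 KO/NTZ libraries, and Bmp2 without 1 KO/PEG or 1 WT/PEG library. In KO/NTZ versus WT/NTZ Nog lost its call without any of 2 WT/NTZ and 5 KO/NTZ libraries, and Bmp2 gained one without either of 2 WT/NTZ libraries. In KO/NTZ versus KO/PEG Inhbb gained one without KO/PEG 32. There Inha lost its call without any of 3 KO/NTZ and 2 KO/PEG libraries, Tgfbr2 without KO/NTZ 30, and Id4 without any of 20 libraries, 14 of them of the KO groups.

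No paired analysis was possible because the groups compared share at most 1 animal number.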
